A study of Mus musculus with 4 samples.

Results

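The α- and β-chain variable segments of the T-cell receptor are described here, as far as single probe sets of the array read them. They are *Trav7d-4*, *Trav7n-5*, *Trav14-1*, *Trav12-2*, *Trav13-5*, *Trav19* and *Trbv1*. In the array annotation these 7 genes are all the α and β variable segments that some probe set names alone, out of 19938 genes so named, and they have 8 of the 35556 probe sets in the table. The 7 were chosen by this annotation with their change after 4OHT already known, so that the differences between 4OHT and EtOH are given for them as a description, and limma's calls over all probe sets, where they fall on them, are listed without being a test of them. Of 274 V, D, J and C genes of the receptor loci in the RefSeq annotation (assembly GRCm38.p6), 9 are named alone by a probe set, so that most segments were not measured singly. No probe set is annotated to the constant regions *Trac*, *Trbc1*, *Trbc2* or *Trdc*, which are not analysed here.

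Expression was measured in ILC87-Ik1-ER cells on 4 Affymetrix Mouse Gene ST 1.0 arrays. All arrays share one sorted, GFP-positive line, made from a thymic tumour of an Ikaros f/f Lck-cre+ mouse and carrying the MigR1:Ik1-ER retrovirus. The labels give the strain as C57BL/6, while the study's methods give the mice as of mixed background. Lck-cre deletes *Ikzf1* in T-lineage cells, and Ik1-ER is Ikaros-1, an isoform with all DNA-binding zinc fingers, linked to the hormone-binding part of the oestrogen receptor, which 4-hydroxytamoxifen (4OHT) brings into the nucleus. The cells received 100 nM 4OHT (2 arrays) or its vehicle ethanol (EtOH, 2 arrays), both for 24 h, and cells lacking Ik1-ER were not arrayed with 4OHT. The arrays of a treatment are called sample 1 and sample 2, and the labels name no separate cultures, so that errors and p-values reflect the spread between these samples alone, which may be technical. Of 9 T-lineage markers 8 were measured, with mean log2 values over all 4 arrays from 9.16 to 13.1, in the upper part of the arrays' range. They were not all alike between treatments. The lowest, *Cd2*, had a mean of 8.04 with EtOH and 10.3 with 4OHT, and *Cd3d* one of 11.7 and 10.8. In bulk RNA fewer expressing cells cannot be told from less RNA per cell.

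Variable segments are the pieces of the receptor genes that encode much of the antigen-binding face. In a developing T cell, the RAG recombinase joins 1 V segment to a J segment in the α chain, and to a D and a J segment in the β chain, and the joined exon is then spliced to the constant region. Unrearranged V segments carry their own promoters and can be transcribed at a low level while the locus is open, before they are joined. The β chain is assembled first and pairs with the pre-T α-chain. α rearrangement follows as cells become CD4+CD8+, beginning with V segments close to the J cluster and moving outwards in later rounds. The letters d and n in names such as *Trav7d-4* and *Trav7n-5* mark copies of duplicated stretches of the mouse locus, whose sequences are close to each other.

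All 8 probe sets read higher on both 4OHT arrays than on both EtOH arrays. The difference of the means ranged from 0.25 to 2.43 on the log2 scale, with a median of 0.60. Over all probe sets the median difference was 0.02, and both 4OHT arrays lay above both EtOH arrays for 28.7% of them and below for 23.2%. At a Benjamini-Hochberg adjusted p under 0.05 from limma, 3 of the 8 were called higher and 0 lower, where 0.987% of all probe sets were called higher and 2.17% lower, and all 8 had an unadjusted p under 0.05, where 18.5% of all probe sets had one. Since the members were chosen with this contrast in view, nothing is read from these counts. Those called were *Trav7n-5*, *Trav12-2* and 1 of the 2 probe sets of *Trav14-1*. Without EtOH sample 1 or EtOH sample 2 no probe set of the array was called, which holds for every call given here and below, and without 4OHT sample 1 or 4OHT sample 2 the 1 left among the 8 was *Trav7n-5*. In 7 of the 8 probe sets the gap between the lowest 4OHT and the highest EtOH array was larger than the distance between the 2 arrays of either treatment, and *Trav7d-4* was the exception.

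**Figure D1:**
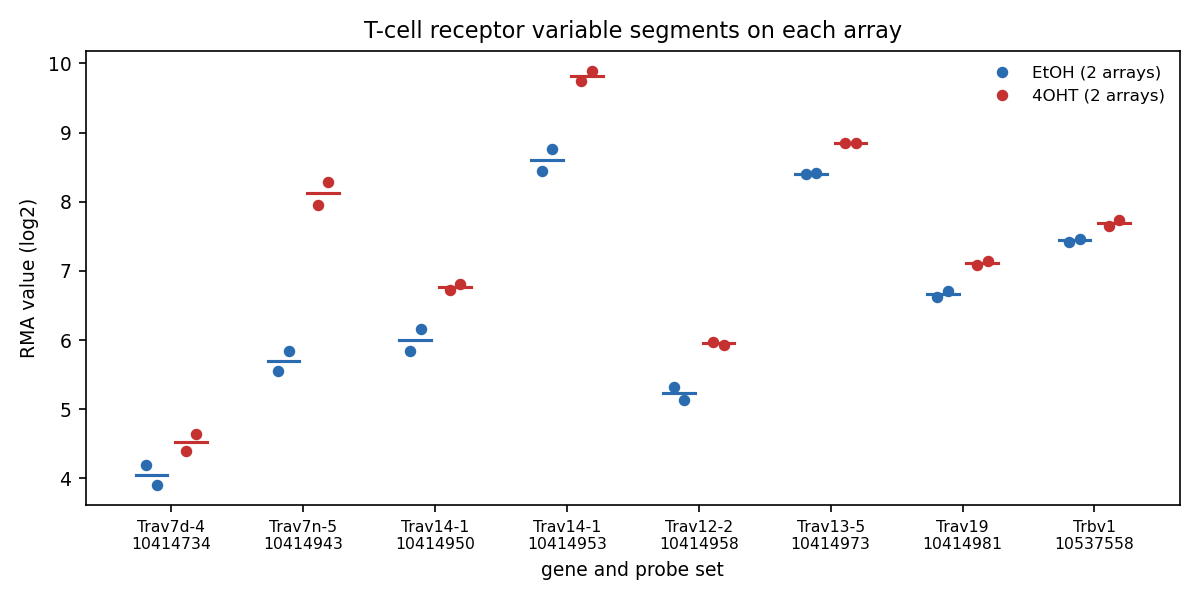
RMA expression values (log2, vertical axis) of the 8 probe sets of α and β variable segments on each array, with gene and probe set number on the horizontal axis. Each point is 1 array, blue for EtOH and red for 4OHT, and a short line gives the mean of 2; in every probe set both red points lie above both blue points, with the widest gap (2.12) for Trav7n-5 and the narrowest (0.18) for Trbv1.

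*Trav7n-5* (probe set 10414943), an α segment of the Trav7 family, read log2 5.55 and 5.84 with EtOH and 7.95 and 8.29 with 4OHT. The groups lay far apart, with the lowest 4OHT array 2.12 above the highest EtOH array and at most 0.34 between arrays of a treatment. This was a 5.39-fold higher level (log2 difference 2.43, standard error 0.16), and it ranked at position 6 among the increases of all 35556 probe sets. The annotation ties this probe set to 1 sequence record, which no probe set with several symbols shares. The EtOH values lie near the arrays' lower quartile (5.67 to 5.74), and whether they were above background is not known.

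*Trav7d-4* (probe set 10414734), of the same family, read 4.20 and 3.91 with EtOH and 4.40 and 4.65 with 4OHT on the log2 scale. The groups did not overlap, but the gap between them (0.20) was smaller than the distance between the EtOH arrays (0.29) and that between the 4OHT arrays (0.25). The log2 difference was 0.47 (standard error 0.14, 1.39-fold). These values lie near the low end of the arrays, whose lowest values are 3.09 to 3.13, and since the deposited values carry no detection calls it is not known whether *Trav7d-4* was above background. The copies named *Trav7d-4* and *Trav7n-5* thus gave differences of unlike size, and how well the probes tell members of the family apart was not tested.

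*Trav14-1* was read by 2 probe sets. Probe set 10414953 gave log2 values of 8.44 and 8.77 with EtOH and 9.75 and 9.88 with 4OHT, a 2.31-fold higher level (log2 difference 1.21, standard error 0.14). Probe set 10414950 gave 5.84 and 6.16 with EtOH and 6.72 and 6.81 with 4OHT (log2 difference 0.77, standard error 0.13, 1.70-fold). Both probe sets of this α segment were higher with 4OHT, the former by more, and in both EtOH sample 2 lay above EtOH sample 1 by about as much (0.33 and 0.31). With an array left out, the log2 difference of probe set 10414953 was 1.05 to 1.37. The 2 probe sets that list *Trav14-1* among several symbols hold 1 set of values, with a log2 difference of 0.19, so that the probe sets of this gene disagreed in size.

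*Trav12-2* (probe set 10414958) read log2 5.32 and 5.14 with EtOH and 5.98 and 5.93 with 4OHT. The arrays of each treatment lay within 0.19 of each other and the groups were 0.61 apart (log2 difference 0.73, standard error 0.094, 1.65-fold). With an array left out, the log2 difference was 0.63 to 0.82. Its EtOH values lie below the lower quartile of the arrays, and whether they were above background is not known. A further 4 probe sets, with 2 distinct sets of values, list *Trav12-2* beside other α segments and share a sequence record with it. Their log2 differences were 1.33 and 1.46, larger than that of the probe set naming it alone.

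*Trav13-5* (probe set 10414973) was the most even of the 8, with log2 values of 8.40 and 8.42 with EtOH and 8.85 on both 4OHT arrays. Each treatment agreed within 0.02, so that the log2 difference of 0.44 (standard error 0.070, 1.36-fold) was many times the distance between arrays of a treatment. It was not called with all probe sets and arrays as deposited, and was called in 3 alternatives (arrays quantile-normalized again, probe sets with means under 6 left out, and probe sets with 1 symbol alone). The 4 probe sets that list it with other α segments gave larger log2 differences, from 0.94 to 1.46.

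*Trav19* (probe set 10414981) is an α segment that no other probe set lists. It read 6.63 and 6.71 with EtOH and 7.09 and 7.14 with 4OHT on the log2 scale, without overlap and with at most 0.08 between arrays of a treatment. Its log2 difference of 0.45 (standard error 0.075, 1.37-fold) was close in size to those of *Trav13-5* and *Trav7d-4*, and it was not called.

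*Trbv1* (probe set 10537558), the one β segment of the 7, had the smallest difference. It read 7.42 and 7.46 with EtOH and 7.64 and 7.74 with 4OHT on the log2 scale, a log2 difference of 0.25 (standard error 0.076, 1.19-fold). The groups were 0.18 apart, more than the distance between the 4OHT arrays (0.09). It was called under none of the alternatives tried. The probe set that lists *Trbv1* with another β segment had a log2 difference of 0.42 and was not called either.

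The 6 α segments lie on chromosome 14, in the locus that also holds the δ genes, and *Trbv1* lies on chromosome 6. Counted from the end farthest from *Trac*, and over the 136 V segments and V pseudogenes that RefSeq places in that locus (assembly GRCm38.p6), *Trav7d-4* is number 14, *Trav7n-5* number 55, *Trav14-1* number 98, *Trav12-2* number 104, *Trav13-5* number 123 and *Trav19* number 126. *Trbv1* is number 1 of 35 in the β locus, farthest from the constant regions. The size of the difference did not run evenly along the α locus. The segment nearest the far end (*Trav7d-4*, 0.47) and those nearest *Trac* (*Trav13-5*, 0.44, and *Trav19*, 0.45) had the smallest log2 differences, and the largest was at *Trav7n-5* between them. With 6 segments of unlike signal this order is a description only.

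**Figure D2:**
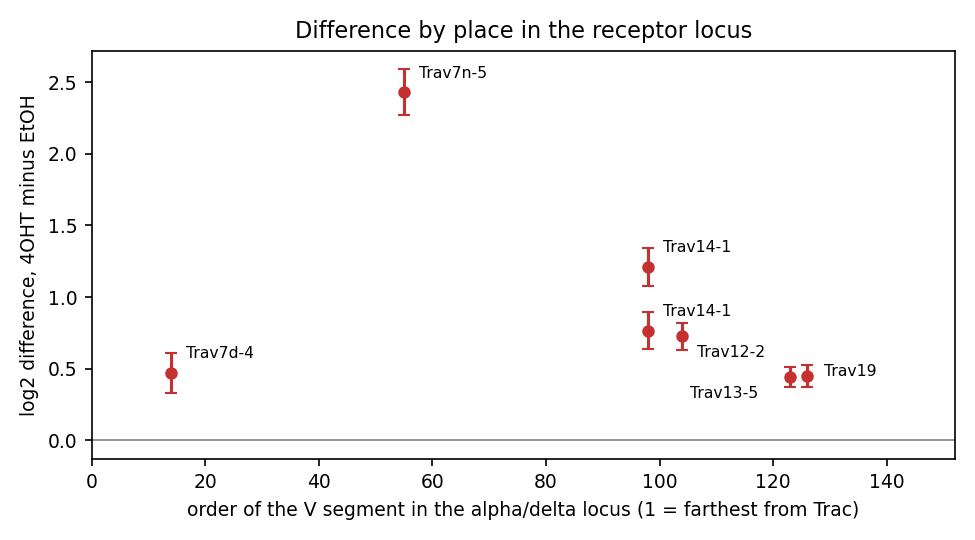
Log2 difference (4OHT minus EtOH, vertical axis) of the 7 probe sets of α segments against the order of the segment among the 136 V segments of the α/δ locus, counted from the end farthest from Trac (horizontal axis). Points are probe sets and bars limma standard errors; the largest difference, 2.43 for Trav7n-5, stands between smaller ones at both ends.

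The rest of the receptor loci was read by 44 further probe sets, all of which, other than those of *Trgv1* and *Trdv2-2*, list several segments and are counted here without gene names. Some hold identical values, so that 33 distinct sets remain, and many share sequence records with each other and with those of 4 of the 8 probe sets above, so that they are not independent readings. Of 38 probe sets with α segments alone, 21 were called higher and 0 lower by limma, against the 0.987% and 2.17% of all probe sets given above. Counted by distinct values, 16 of 27 were called higher, and both 4OHT arrays lay above both EtOH arrays in 25 of them and below in 1. Their log2 differences ranged from -0.14 to 1.46, with a median of 0.90. In the 4 probe sets that list segments of the Trav9 family the log2 differences were 1.18 to 1.40 and all 4 were called. Called higher were also 4 of 4 that list Trav13 segments, 5 of 6 with Trav12, 15 of 29 with Trav3 and 0 of 4 with Trav14. A probe set can count for more than 1 family. In the 4 probe sets that list Trav7 segments (3 with distinct values) the log2 differences were -0.14 to 0.40. None of these was called (3 at an unadjusted p under 0.05), so that the 2.43 of *Trav7n-5* was not seen in other probe sets of its family. Their mean log2 values over the 4 arrays were 3.78 to 6.77. The -0.14 belonged to the dimmest, and whether that one was above background is not known. Without EtOH sample 1 or EtOH sample 2 none of the 44 was called, and 14 and 3 were called without 4OHT sample 1 and 4OHT sample 2.

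The γ and δ chains, which form the receptor of a separate T-cell lineage, gave other values. *Trgv1*, a γ variable segment, read 10.84 and 10.87 with EtOH and 10.73 and 10.59 with 4OHT on the log2 scale. Both 4OHT arrays lay below both EtOH arrays, with a log2 difference of -0.19 (adjusted p = 0.322 from limma). *Trdv2-2*, a δ variable segment of the α locus, read 4.91 and 4.87 with EtOH and 5.01 and 4.80 with 4OHT, so that the groups overlapped (log2 difference 0.01, adjusted p = 0.952 from limma). All of its values lie below the arrays' lower quartile (5.67 to 5.74). Whether *Trdv2-2* was above background is not known, so that the lack of a difference there says little. The 3 probe sets that list several γ segments were bright (mean log2 values 9.57 to 11.7), and their log2 differences were -0.65 to -0.40, with no overlap between treatments. None of these γ probe sets was called by limma, and 3 of the 4 had an unadjusted p under 0.05. The difference between α and γ segments was not tested.

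**Figure D3:**
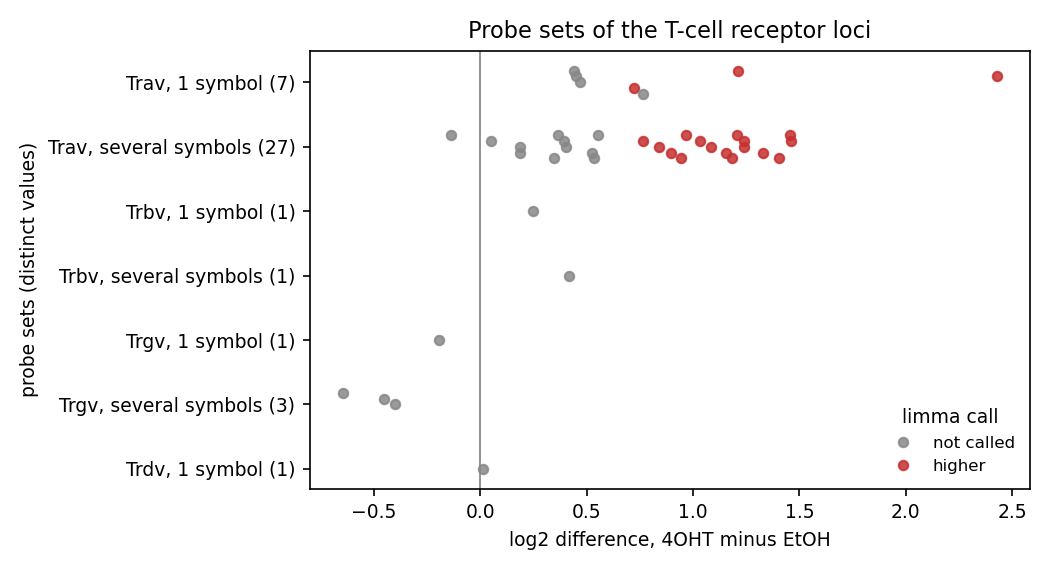
Log2 differences (4OHT minus EtOH, horizontal axis) of all probe sets of the T-cell receptor loci, by chain and by whether the annotation gives 1 or several symbols, with the number of distinct probe sets in brackets. Each point is a probe set, red if called higher by limma and grey if not called; the α probe sets reach from -0.14 to 2.43, and the γ probe sets from -0.65 to -0.19.

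The receptor chains reach the cell surface with the CD3 subunits. Of 6 listed genes of this complex 1 was higher, 1 lower and 4 did not pass the test (median log2 difference -0.29, beside 0.02 for all probe sets). Of all probe sets 0.987% were called higher and 2.17% lower. All 6 genes had an unadjusted p under 0.05 from limma, beside 18.5% of all probe sets, so that the 4 are not shown to be unchanged. *Trat1*, which encodes an adaptor that associates with the receptor and CD3ζ, read 7.87 and 8.04 with EtOH and 9.13 and 9.21 with 4OHT on the log2 scale. This was a 2.32-fold increase (log2 difference 1.22, standard error 0.093, adjusted p = 0.0150 from limma), close in size to that of *Trav14-1* probe set 10414953. *Trat1* passed the test without 4OHT sample 1 (adjusted p = 0.0437 from limma) but not without any other array (0.0689 to 0.133) or with the sample number as a block (0.0584). *Cd3d*, the δ chain of CD3, read 11.7 and 11.8 with EtOH and 10.7 and 10.9 with 4OHT, and fell by 0.94 on the log2 scale (standard error 0.081, adjusted p = 0.0172 from limma).

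The remaining 4 genes of the complex did not pass the test. *Cd3e* and *Cd3g*, the ε and γ chains of CD3, had log2 differences of -0.31 (adjusted p = 0.115 from limma) and -0.49 (adjusted p = 0.0651 from limma), and *Ptcra*, the pre-T α-chain, had one of -0.27 (adjusted p = 0.198 from limma). In all of them both 4OHT arrays lay below both EtOH arrays. *Cd247*, which encodes the ζ chain, had a log2 difference of 0.24 (adjusted p = 0.248 from limma) and read higher on the 4OHT arrays. *Cd3g* passed the test in 3 alternative fits (adjusted p = 0.0450 when dim probe sets with means under 6 were left out, 0.00290 among those with 1 symbol and 0.0302 with an intensity trend, all from limma) and *Cd3e* in the last 2 of these (0.0272 and 0.0340), and *Cd3d* did not pass it without any 1 of the 4 arrays (adjusted p = 0.0533 to 0.154 from limma).

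**Figure D4:**
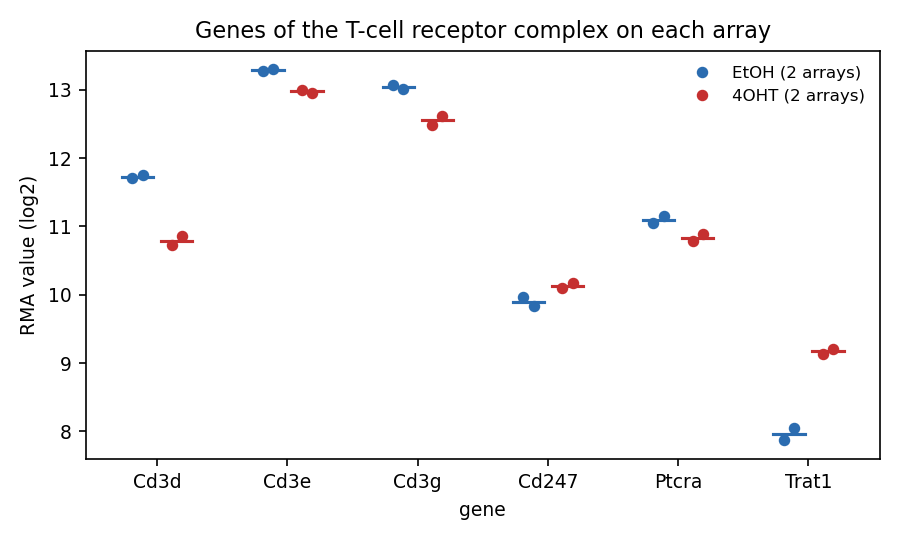
RMA expression values (log2, vertical axis) of the 6 listed genes of the T-cell receptor complex (horizontal axis) on each array. Each point is 1 array, blue for EtOH and red for 4OHT, and a short line gives the mean of 2; Trat1 was higher with 4OHT by 1.22, Cd3d lower by 0.94, and the other 4 genes were not called.

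Of 13 measured genes of V(D)J recombination, 1 was lower, none was higher and 12 did not pass the test (median log2 difference 0.15). Of all probe sets 2.17% were called lower and 0.987% higher. At an unadjusted p under 0.05 from limma were 4 of the 13, beside 18.5% of all probe sets, and 1 called gene is no result about the list. *Dntt*, the terminal transferase that adds bases at the joints, read 12.3 and 12.2 with EtOH and 11.2 and 11.3 with 4OHT, and fell by 0.99 on the log2 scale (standard error 0.083, adjusted p = 0.0166 from limma). The recombinase genes *Rag1* and *Rag2* had log2 differences of 0.21 and 0.01 (adjusted p = 0.292 and 0.976 from limma). Their mean log2 values with EtOH were 11.8 and 8.78. Of 12 measured factors that bind the receptor loci or their enhancers none was called by limma (6 at an unadjusted p under 0.05). Among these, *Satb1* had a log2 difference of 0.34 (adjusted p = 0.111 from limma) and *Runx1* one of -0.37 (adjusted p = 0.105 from limma). Rearrangement itself was not measured, and the arrays do not tell a joined from an unjoined segment.

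Outside the receptor loci, the genes whose 4 values, centred on their mean, lay nearest to those of *Trav7n-5* were sought among 19921 genes. They were *Cd2*, an adhesion receptor (Euclidean distance 0.28 on the log2 scale), *Cd4* (0.43) and *Cd8b1*, the β chain of CD8 (0.45). *Cd2* read 8.01 and 8.06 with EtOH and 10.2 and 10.4 with 4OHT, a log2 difference of 2.25. For *Cd4* and *Cd8b1* the log2 differences were 2.34 and 2.68. The likeness rests on 4 arrays and reflects mostly the size of the difference.

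Markers of other cells were examined beside these values. Of 8 measured markers of CD4+CD8+ thymocytes, the stage at which α segments are joined, *Cd8a*, *Cd8b1* and *Cd4* were higher, *Dntt* was lower and 4 did not pass the test. Calls over all probe sets were 0.987% higher and 2.17% lower. At an unadjusted p under 0.05 from limma were 6 of the 8, beside 18.5% of all probe sets. The 4 that did not pass are thus not shown to be unchanged. Over the 8 markers the median log2 difference was 0.36, with 4.32 for *Cd8a*, 2.68 for *Cd8b1*, 2.34 for *Cd4* and -0.99 for *Dntt*. The other 4 had log2 differences from -0.27 to 0.52, so that a higher mean over the list rests on the co-receptor genes. The -0.27 was that of *Ptcra*, whose product pairs with the β chain before α rearrangement, so that it does not mark this stage alone. The mean log2 value over the 8 was 9.89 on both EtOH arrays and at least 10.99 on the 4OHT arrays. For 6 markers of innate-like T cells it was 6.66 and 6.70 with EtOH and 6.74 and 6.75 with 4OHT, with none called by limma (2 at an unadjusted p under 0.05, beside 18.5% of all probe sets). For 5 measured B-cell markers it was 5.57 to 5.66 with EtOH and 5.73 to 5.76 with 4OHT, again with none called (1 at an unadjusted p under 0.05). Their part in the values of the variable segments was not tested.

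Over the alternatives tried, the lowest and highest log2 differences were 2.26 and 2.60 for *Trav7n-5* and 0.20 and 0.29 for *Trbv1*. Because the treatments do not overlap in any of the 8 probe sets, leaving out an array cannot turn a sign, and several alternatives leave the difference itself as it is, so that the sign is no measure of stability.

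**Figure D5:**
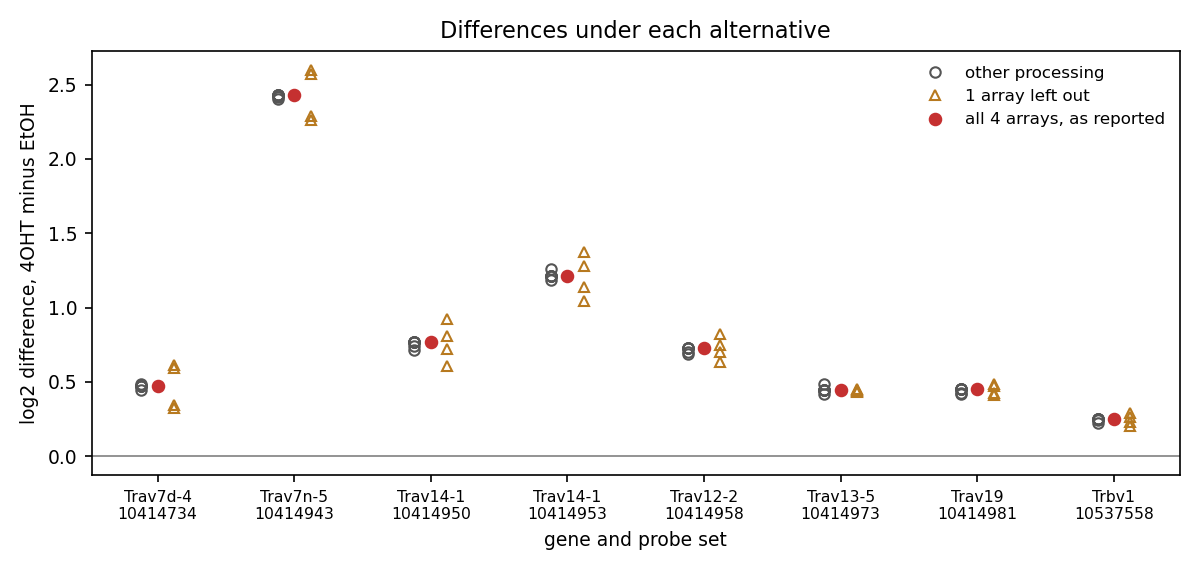
Log2 difference (4OHT minus EtOH, vertical axis) of the 8 probe sets (horizontal axis) with all 4 arrays (red), with other processing (grey circles) and with each array left out in turn (triangles). The values of Trav7n-5 reach from 2.26 to 2.60 and those of Trbv1 from 0.20 to 0.29.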

How the data were processed

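Values were deposited on the log2 scale, for 35556 probe sets. Expression Console 1.1 and RMA are the tools in the submitters' processing notes. RMA subtracts background, quantile-normalizes probes across arrays and combines them by probe set, so that a shift shared by most genes is removed and dim features show reduced differences. The build used to place probes was not stated in the sources read.

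The arrays were compared with limma 3.58.1 in R 4.3.3 (lmFit and eBayes, two-sided, no filter, 2 residual and 2.66 prior degrees of freedom), with Benjamini-Hochberg adjustment over all probe sets. Symbols were updated by Entrez number for 21698 of 21789 probe sets with 1 symbol, through RefSeq (assembly GRCm38.p6). A list gene with more than 1 probe set was represented by its brightest. Named were the 7 segments, other segments with a probe set of their own, the receptor complex, up to 4 called genes of each further list and the 3 genes nearest to *Trav7n-5*; *Rag1*, *Rag2*, *Satb1* and *Runx1* were named after their values were seen. The members and lists were chosen with earlier results of these data known. The script was tested on simulated data. The number of arrays limits the precision.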

Additional observations from a re-analysis of the deposited data

How the results depend on the processing

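Of the 8 probe sets of variable segments, *Trav13-5* alone had a log2 difference that moved by more than its spread between arrays (0.49 after the arrays were quantile-normalized again, 0.42 with equal array medians). Its spread was the smallest of the 8, so that this does not make it the least stable. After the same normalization the 2 *Trav14-1* probe sets moved from 1.21 to 1.26 and from 0.77 to 0.72, within their larger spreads. Filters, blocks and the intensity trend leave the difference itself as it is, and 2 of the 8 (*Trav7d-4* and *Trav12-2*) were not tested under the minimum mean. That minimum was set on the mean over all 4 arrays. *Trav7n-5* passed it only through its 4OHT arrays (mean log2 value 5.69 with EtOH and 8.12 with 4OHT). Nothing is read from its call under that minimum. Of the 8 probe sets, 3 were called higher, 1 with the sample number as a replicate block (*Trav7n-5*), 4 after quantile normalization again, 5 of 6 when probe sets with means under 6 were left out, where 506 of 24970 were called higher, 7 over probe sets with 1 gene symbol alone, where 1070 of 21789 were called higher, and 0 to 1 with an array left out. Of the 44 further probe sets of the receptor loci 21 were called, 0 with the replicate block and 0 to 14 with an array left out, and those with several symbols could not be fitted over probe sets with 1 symbol. Of the 6 genes of the receptor complex 2 were called, 0 with the replicate block, 4 over probe sets with 1 gene symbol alone, 4 with an intensity trend and 0 to 1 with an array left out. The fits without EtOH sample 1 or 2 have 1 residual degree of freedom, assume that the lone array varies like the other treatment's, and called no probe set at all (4902 and 4739 at an unadjusted p under 0.05). With the replicate block 10 probe sets of the array were called higher and 32 lower, against 351 and 772. Among the 21789 probe sets with 1 gene symbol 1070 were called higher and 1868 lower. With the intensity trend 388 of 35556 were called higher and 840 lower. Nothing in the labels pairs samples of one number, and deviations of same-numbered samples from their treatment means correlated at r = -0.134 across probe sets. With the crossed pairing, added after seeing the data, 2 of the 8, 21 of the 44 and 2 of the 6 were called. The cause of these differences was not tested.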

Other observations

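Immunoglobulin variable segments, the counterparts of these genes in B cells, were read by 12 probe sets. None was called by limma, and none had an unadjusted p under 0.05. Their log2 differences ranged from -0.15 to 0.25, with a median of 0.05. Both 4OHT arrays lay above both EtOH arrays in 4 of the 12 and below in 2, beside 28.7% and 23.2% of all probe sets.

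Of 13 measured genes from stretches next to or inside the α and β receptor loci, 1 was called higher and none lower, beside 0.987% and 2.17% of all probe sets. At an unadjusted p under 0.05 from limma were 4 of the 13, beside 18.5% of all probe sets. The gene called was *Ephb6*, which encodes a kinase-dead Eph receptor expressed in T cells and lies beside the β locus. *Ephb6* read 8.65 and 8.53 with EtOH and 9.19 and 9.28 with 4OHT on the log2 scale (log2 difference 0.64, standard error 0.084, adjusted p = 0.0376 from limma). *Dad1*, which lies next to the α locus beyond *Trac*, read 12.8 and 12.9 with EtOH and 12.9 and 13.1 with 4OHT (log2 difference 0.13, adjusted p = 0.505 from limma) and was chosen after its values were seen.

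Of 6 myeloid markers, *Itgam* was called higher (log2 difference 0.68) and *Lyz2* lower (-1.24), beside 0.987% and 2.17% of all probe sets. Of the 6, 2 had an unadjusted p under 0.05 from limma. Of 2 measured erythroid markers none was called, with none at an unadjusted p under 0.05.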
